A study of Arabidopsis thaliana with 6 samples.

Results

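The arrays carried 146 probes for 82 miRNA precursors of 31 low-numbered Arabidopsis families. The members were the non-control probes whose transcript name begins with ath-MIR and whose family number runs from MIR158 to MIR408, with MIR172 left out. They are part of 331 miRNA precursor probes, under 173 names, among 15013 probes on each array. The choice used names alone and no measured value. All 82 precursors had an entry in the RefSeq gene table of assembly TAIR10.1. The mutant group was 3 samples titled rdr2 mutant and the control group 3 samples of wild type, all in ecotype Col-0, all inflorescences of plants aged 4 weeks with open flowers, buds and some very young siliques. The protocols name the allele rdr2-1, whereas the genotype field numbers it differently in each sample (rdr2-1, rdr2-2 and rdr2-3). The samples were kept as 1 group, as titled. The labels call the samples biological replicates and do not say how many plants went into each. Of 22 floral, pollen, leaf and root marker genes looked up, 0 had a probe on the array, so the organ label could not be checked.

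In plants, RNA polymerase II transcribes miRNA genes into precursors that fold back on themselves. The Dicer DCL1 cuts the miRNA out of the fold, and an Argonaute protein, mostly AGO1, uses it to cut or repress matching transcripts. RDR2 is an RNA-dependent RNA polymerase. It makes transcripts of RNA polymerase IV double-stranded, and DCL3 cuts these into the siRNAs of DNA methylation, a pathway separate from that of DCL1-dependent miRNAs. Many low-numbered families are shared with other land plants, and in flowers they act on transcription factors of organ boundary, polarity and auxin response. The probes report precursor RNA and not the mature miRNA.

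Values are scaled signals, in which 100 stands for the 75th percentile of the array, taken over 2369 probes. These were the probes that the extraction software marked as well above background, or detected, on each of the 6 arrays. A probe was tested when 1 or both groups had this mark on all of their 3 arrays, and was called at an adjusted p under 0.05 over the 3345 probes tested on the array. The targeted gene checked the labels. RDR2 (AT4G11130) had scaled signals of 61.4, 62.0 and 66.4 in rdr2 and 395, 381 and 454 in wild type on its first probe. The log2 fold change was -2.69 (SE 0.125, limma adjusted p = 0.000168) on that probe and -2.73 and -2.63 on the others. Replicates 1 and 2 of each group shared a slide, and each replicate 3 lay on a slide of its own. No slide held both groups, so slide and group cannot be fully told apart. The mutant arrays were dimmer: the 75th percentile intensity was 155 to 285 in rdr2 and 305 to 371 in wild type. In all, 17.6% to 24.8% of all probes were well above background on the rdr2 arrays and 24.1% to 37.9% on the wild-type arrays. In bulk tissue, fewer cells of a type and less RNA per cell cannot be told apart.

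Few of the low-numbered precursors were called in rdr2. Of 62 tested probes, from 43 precursors and 23 families, 1 was called higher and 0 lower (1.61% called). Among all tested probes 5.11% were called higher and 8.49% lower, or 13.6% in either direction. At an unadjusted p under 0.05 the member counts were 5 higher and 6 lower of 62, where the shares of all tested probes were 9.69% and 23.5%. The low share of members called depended on the processing. The normexp setting corrected median signals by normexp with an offset of 50 and then quantile-normalized them. With it, 4 were called higher and 4 lower (12.9% in all), against 6.79% and 7.17% of all tested probes (14.0% in all). The other tested miRNA precursor probes numbered 79, with 4 called higher and 10 lower. The median log2 fold change was -0.09 over the members, -0.30 over the other precursor probes and -0.26 over all tested probes. The median size of the log2 fold change, regardless of sign, was 0.24 over the members and 0.42 over all tested probes, with median SEs of 0.201 and 0.216. Over the scalings the median of all tested probes lay between -0.26 and 0.35. Percentile and median scalings move the log2 fold change of every probe alike, so the member median lay 0.17 above it there by construction. With quantile normalization the gap was 0.25, with the deposited table, nearly the same values, 0.24, and with normexp 0.03. With no filter on dim probes, over all 146 member probes, the order turned: the member median was -0.01 and that of all probes 0.16.

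**Figure D1:**
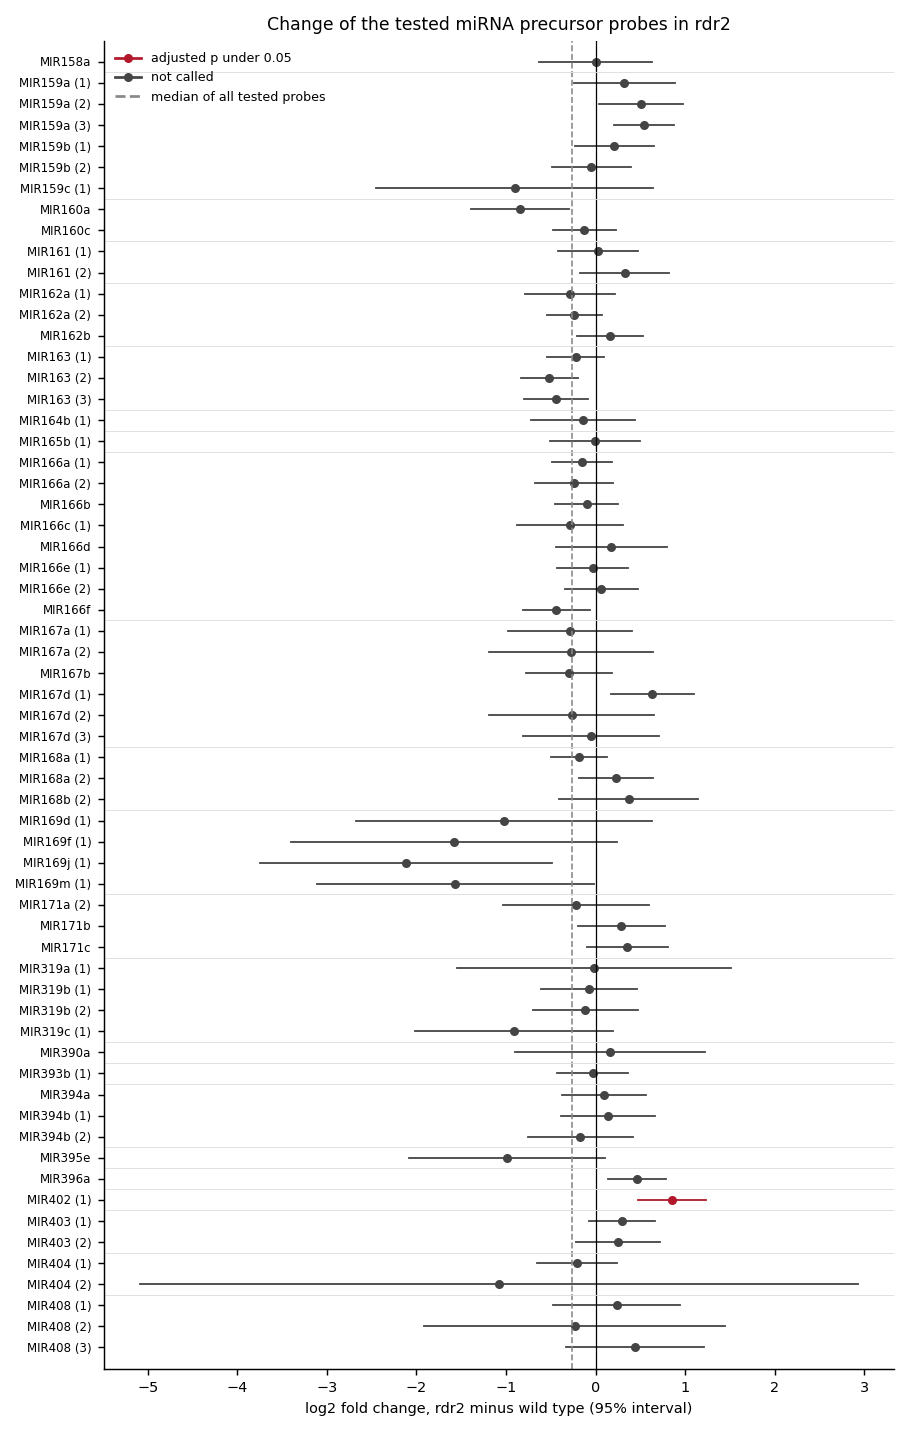
The log2 fold change of rdr2 minus wild type (points) with its 95% interval (lines) is drawn for each of the 62 tested probes, ordered by family, with the probe number in brackets where a precursor had several. MIR402 probe 1 is the only called probe, and the widest intervals belong to MIR404 probe 2, the 4 MIR169 probes, MIR408 probe 2, MIR159c and MIR319a.

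The interval of the log2 fold change lay within a 2-fold change in either direction for 43 of the 62 tested probes. This holds for single probes under this scaling and not for whole precursors, since other probes of MIR404 and MIR167d had intervals past 2-fold, and taking the percentile over all probes moved the median of all tested probes to 0.35. For the other 19 the interval reached past 2-fold, and 5 of these had an estimate past 2-fold (MIR169d, MIR169f, MIR169j, MIR169m and MIR404 probe 2). A probe missing the threshold was not thereby shown to be unchanged. The intervals also take the arrays of a group as independent, although replicates 1 and 2 shared a slide. The groups did not overlap at 6 probes with higher and 8 with lower signals in rdr2, where over all tested probes the shares were 12.2% and 26.6%. Of 15 precursors with several tested probes, 9 had all log2 fold changes of 1 sign. The spread between probes of 1 precursor had a median of 0.26 on the log2 scale and reached 0.90 for MIR167d.

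Detection set how much could be tested. In rdr2, 44 of the 146 probes were well above background on all 3 arrays, against 62 in wild type, and all of the 44 were among the 62. The 18 tested probes that were not detected on every rdr2 array therefore entered the test through their detection in wild type, and 0 entered through rdr2 alone. Not all of the 18 had higher scaled signals in wild type. Another 44 probes, and 15 precursors on all of their probes, were well above background on none of the 6 arrays. Members were tested more often than the array as a whole, at 42.5% against 22.3% of probes. The part of array brightness in these detection counts was not tested.

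**Figure D2:**
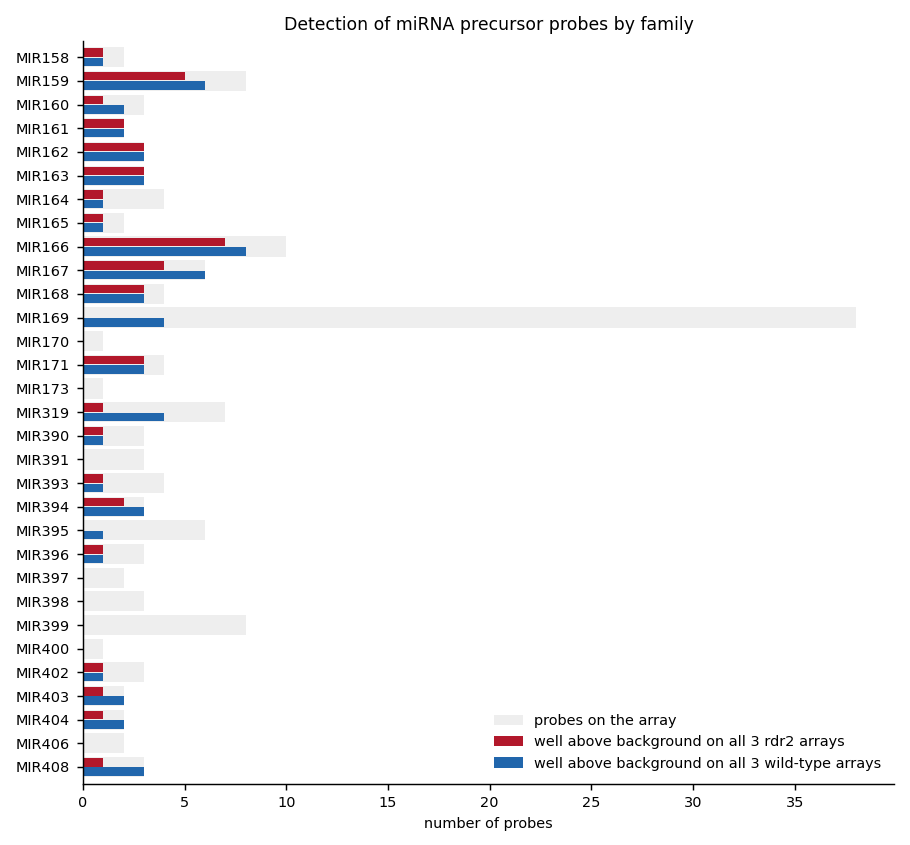
Bars give the number of probes per family on the array (grey), and those well above background on all 3 rdr2 arrays (red) or on all 3 wild-type arrays (blue). MIR169, with 38 probes, had 0 probes detected on all rdr2 arrays and 4 on all wild-type arrays, whereas the 3 probes each of MIR162 and MIR163 were detected on all 6 arrays.

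MIR402 (AT1G77235) was the only member called. Its miRNA is found mostly in Brassicaceae and acts on DML3, a DNA glycosylase of active DNA demethylation. Probe 1 had scaled signals of 2.96, 3.58 and 2.84 in rdr2 and 1.91, 1.54 and 1.74 in wild type. Every rdr2 array lay above every wild-type array, and the log2 fold change was 0.85 (SE 0.154, 95% interval 0.47 to 1.23, adjusted p = 0.0226), 1.80-fold higher. These are dim signals. The lowest scaled signal of any probe well above background was 2.60, 2.63 and 1.31 on the rdr2 arrays and 1.84, 1.46 and 1.11 on the wild-type arrays. The other MIR402 probes were too dim to test: probe 3 had 0.975, 1.05 and 2.47 in rdr2 and 1.97, 1.22 and 1.92 in wild type, and all 6 arrays read probe 2 as not well above background. MIR402 lies within the protein-coding locus AT1G77230, which had no probe. Its call ended under 14 of 20 alternatives, among them slide as a random block (log2 fold change 0.82, adjusted p = 0.261) and normexp (0.11, adjusted p = 0.230). It also ended without rdr2 replicate 1 (adjusted p = 0.0841) or 2 (0.0778) and without wild-type replicate 1 (0.0654) or 2 (0.10).

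Families that act on transcription factors made up 11 of the 31, with 43 precursors and 86 probes. Of their 36 tested probes, 0 were called in either direction, against 13.6% of all tested probes. Their median log2 fold change was -0.12, against -0.26 over all tested probes. The next paragraphs take them by target.

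MIR159 and MIR319 are related families that act on GAMYB-like MYB factors, regulators of anther development, and on TCP factors, regulators of leaf and petal growth. MIR159a probe 3 had scaled signals of 10.4, 10.2 and 9.08 in rdr2 and 7.62, 6.53 and 6.33 in wild type, without overlap. Its log2 fold change of 0.54 (SE 0.134) missed the threshold (adjusted p = 0.0536), and the other MIR159a probes stood at 0.32 and 0.51. The estimate kept its sign under every scaling and ranged from 0.30 to 1.15. MIR159b gave 0.21 and -0.05. MIR159c, at 4.04, 2.18 and 4.40 in rdr2 and 8.90, 11.1 and 2.55 in wild type, had wild-type replicate 3 inside the rdr2 range. MIR319c, whose 3 rdr2 arrays read 2.87, 1.95 and 1.80, had 5.79, 5.49 and 2.11 in wild type and a log2 fold change of -0.91 (adjusted p = 0.209), with wild-type replicate 3 again the low one. MIR319a (-0.02) and MIR319b (-0.07 and -0.12) lay near 0.

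The auxin response factor families are MIR160, which acts on ARF10, ARF16 and ARF17, and MIR167, which acts on ARF6 and ARF8 in ovule and anther development. MIR160a had 2.39, 2.33 and 3.72 in rdr2 and 5.44, 4.68 and 4.68 in wild type. The groups did not overlap, but only 1 rdr2 array was well above background and the log2 fold change of -0.84 missed the threshold (SE 0.219, adjusted p = 0.0606). It was called lower without rdr2 replicate 3 (log2 fold change -1.06, adjusted p = 0.0108), where 13.3% of all tested probes were. The array left out was the only rdr2 array that detected the probe. That call thus rests on rdr2 replicates 1 and 2, which shared a slide and were not well above background. MIR160c gave -0.13 and MIR160b was detected on 0 of the 6 arrays.

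MIR167d probe 1 had 3.91, 3.56 and 5.32 in rdr2 and 2.54, 2.95 and 2.65 in wild type, also without overlap (log2 fold change 0.63, SE 0.187, adjusted p = 0.0807). Its other probes did not repeat this, at -0.27 and -0.05. The MIR167d locus was also covered by 3 probes named by locus (AT1G31173), which gave 0.01, -0.13 and 0.05. MIR167a gave -0.28 and -0.27 on its own probes and 0.17, 0.14 and 0.16 on the locus-named ones (AT3G22886). MIR167b gave -0.29 on its own probe and -0.42 on the locus-named one (AT3G63375). None of these probes was called, and for MIR167a the 2 probe sets differed in sign.

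**Figure D3:**
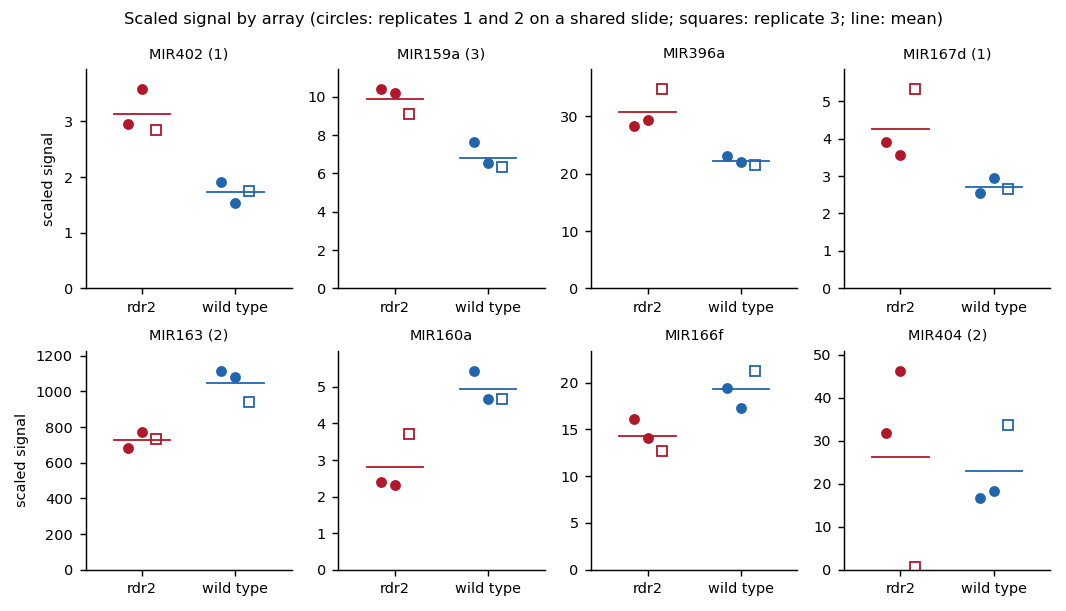
Scaled signal is shown by array for 8 probes, with rdr2 left of wild type; circles are the replicates that shared a slide, squares are replicate 3 and lines are group means. MIR402, MIR159a, MIR396a and MIR167d are higher in rdr2 and MIR163, MIR160a and MIR166f lower, all without overlap, whereas MIR404 probe 2 has 1 rdr2 array at 0.743 and the others at 31.8 and 46.2.

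MIR165 and MIR166 act on the class III HD-ZIP factors, which set adaxial identity and meristem function. MIR166 was the family with most tested precursors, 6 of 7. MIR166a probe 1 had 31.5, 33.5 and 35.4 in rdr2 and 39.8, 39.2 and 32.8 in wild type, a log2 fold change of -0.15, and probe 2 gave -0.24. MIR166b had 10.3, 11.7 and 9.85 in rdr2 and 12.9, 10.8 and 10.5 in wild type (-0.10). MIR166c had 16.0, 16.8 and 22.4 in rdr2 and 28.2, 22.7 and 17.0 in wild type (-0.28). In each of these 3 precursors the groups overlapped. MIR166d had 15.8, 14.6 and 25.1 in rdr2 and 18.6, 15.5 and 13.9 in wild type (0.18). MIR166e had 12.9, 12.5 and 14.4 in rdr2 and 15.9, 13.7 and 11.6 in wild type on probe 1 (-0.03), and 0.06 on probe 2. MIR166f alone had groups that did not overlap, at 16.1, 14.1 and 12.7 in rdr2 and 19.4, 17.3 and 21.3 in wild type. Its log2 fold change of -0.44 (SE 0.150, adjusted p = 0.110) turned to 0.17 when the percentile was taken over all probes. MIR166g was well above background on 1 wild-type array. MIR165b, the single MIR165 precursor on the array, gave -0.01 on its tested probe.

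MIR164b, of the family that limits CUC boundary genes, gave -0.14. MIR171 and MIR170 act on GRAS factors of the HAM group, which maintain meristems. MIR171c had 8.07, 8.56 and 8.85 in rdr2 and 5.23, 7.19 and 7.78 in wild type, which did not overlap (log2 fold change 0.35, adjusted p = 0.226), while MIR171a gave -0.21 and MIR171b 0.29. MIR396a, of the family that acts on GRF growth factors, had 28.3, 29.3 and 34.8 in rdr2 and 23.1, 22.1 and 21.5 in wild type. Its groups did not overlap, its log2 fold change was 0.47 (SE 0.131, adjusted p = 0.0721), and the sign held under every scaling. MIR396b was not tested.

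MIR169, which acts on NF-YA subunits of the CCAAT-binding complex, was the family with most probes: 14 precursors and 38 probes. It was detected mainly on the shared wild-type slide. The number of MIR169 probes well above background was 0, 1 and 3 on the rdr2 arrays and 14, 17 and 5 on the wild-type arrays. The 13 probes detected in both wild-type replicates 1 and 2 covered 12 of the 14 precursors, and 4 of the 13 were also detected in replicate 3. The other 108 member probes counted 51, 48 and 64 on the rdr2 arrays and 67, 74 and 66 on the wild-type arrays. In this count wild-type replicate 3 was close to replicate 1. By signal some of these probes, among them MIR173 and MIR391 probe 3, were lower in replicate 3 than in replicates 1 and 2. Over all probes on the array the shares were 17.56%, 17.76% and 24.8% in rdr2 and 37.9%, 37.4% and 24.1% in wild type, with replicate 3 lowest in wild type as in MIR169.

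The 4 tested MIR169 precursors had the lowest estimates of all precursors here apart from MIR404 probe 2, and 0 were called. All 4 entered the test through wild type alone, where they were high, which favours low estimates. MIR169j had 0.534, 1.14 and 0.850 in rdr2 and 5.64, 5.70 and 1.30 in wild type. Its log2 fold change was -2.11 (SE 0.657, adjusted p = 0.0902). It was not well above background on any rdr2 array, so its fold rests on dim signals. With rdr2 signals raised to at least the lowest signal well above background on each array, the estimate was 1.67-fold lower in rdr2. This figure leaves out the spread between arrays, and the interval of the log2 fold change was -3.74 to -0.48. MIR169m had 2.26, 2.98 and 2.13 in rdr2 and 11.8, 11.9 and 2.65 in wild type (log2 fold change -1.57, adjusted p = 0.148). It too was not well above background on any rdr2 array. With rdr2 signals raised likewise the MIR169m estimate was 2.82-fold lower, but the interval of the log2 fold change was -3.11 to -0.02. MIR169f had 1.98, 1.36 and 4.08 in rdr2 and 10.6, 11.4 and 2.41 in wild type (log2 fold change -1.58, adjusted p = 0.193). MIR169d had 0.763, 1.63 and 2.25 in rdr2 and 4.49, 4.40 and 1.18 in wild type (-1.02, adjusted p = 0.322). In all 4 precursors wild-type replicate 3 lay apart from the other wild-type arrays. It was inside the rdr2 range for MIR169d, MIR169f and MIR169m and just above it for MIR169j.

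Without wild-type replicate 3, MIR169j (log2 fold change -2.82, adjusted p = 0.00691), MIR169m (-2.29, adjusted p = 0.00318) and MIR169f (-2.31, adjusted p = 0.0257) were called lower. These probes were 3 of 7 member probes called lower there, of 62. The wild-type arrays left shared a slide, so the wild-type spread behind these p-values is that within 1 slide. Leaving out that array also brought the share of all tested probes called lower to 23.0%, against 8.49% with it, so this gain was not seen in MIR169 alone. When slide was fitted as a random block over all 6 arrays, none of MIR169j, MIR169m and MIR169f was called (adjusted p = 0.396, 0.426 and 0.566). Of the untested MIR169 probes, 9 were detected in wild-type replicates 1 and 2. On all 9, replicate 3 lay below both. That it was not well above background there follows from the filter, since detection on all 3 wild-type arrays would have had them tested. Another 18 MIR169 probes were detected on 0 of the 6 arrays. Of the 9, MIR169l probe 1 had 0.757, 0.758 and 0.675 in rdr2 and 6.97, 6.72 and 0.683 in wild type. MIR169n probe 1 had 0.629, 0.668 and 1.31 in rdr2 and 6.31, 6.04 and 0.340 in wild type. In RefSeq gene order MIR169i is next to MIR169j, MIR169k to MIR169n follow each other, and MIR169d is next to MIR169e. Each of these 8 precursors had a probe detected in wild-type replicates 1 and 2. Probe sequences were not used here, and whether precursors of a family share signal was not tested.

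**Figure D4:**
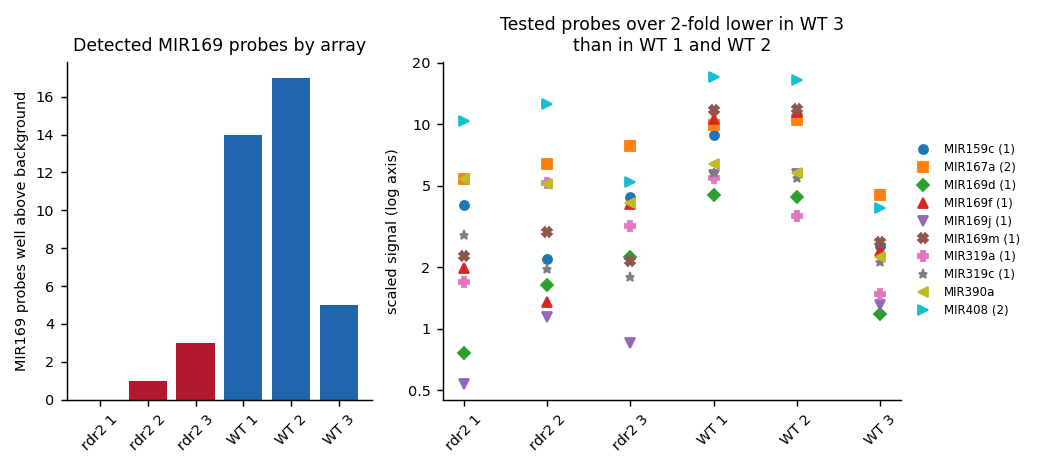
The left panel gives the number of the 38 MIR169 probes well above background on each array, which was 0 to 3 in rdr2, 14 and 17 on the shared wild-type slide and 5 in wild-type replicate 3. The right panel gives the scaled signal (log axis) on each array of the 10 tested member probes whose wild-type replicate 3 lay over 2-fold below the mean of the other wild-type arrays; these were picked for that difference.

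A low wild-type replicate 3 was not seen in MIR169 alone. It lay over 2-fold below the mean of the other wild-type arrays in 10 of the 62 tested member probes (16.1%), against 18.6% of all tested probes. Besides the 4 MIR169 probes these were MIR159c, MIR319a, MIR319c, MIR390a, MIR167a probe 2 and MIR408 probe 2. MIR408 probe 2 had 10.3, 12.6 and 5.20 in rdr2 and 17.0, 16.4 and 3.90 in wild type, so replicate 3 was the low one in both groups.

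Families that act on the small-RNA machinery itself had 0 of 9 tested probes called, against 13.6% of all tested probes. MIR162a, which acts on DCL1, had 53.6, 56.6 and 58.6 in rdr2 and 72.2, 60.2 and 66.9 in wild type on probe 2. The groups did not overlap and the log2 fold change was -0.24 (SE 0.125, adjusted p = 0.235), turning to 0.38 with the percentile over all probes. Probe 1 gave -0.29, and MIR162b gave 0.16. MIR168a, which acts on AGO1, had 16.0, 16.9 and 19.0 in rdr2 and 20.1, 18.5 and 20.5 in wild type on probe 1 (-0.19), and 0.23 on probe 2. MIR168b gave 0.37, with rdr2 replicate 2 at 25.0 and the others at 12.7 and 11.6. MIR403, which acts on AGO2, gave 0.30 and 0.25, from 4.24, 3.28 and 4.21 in rdr2 and 3.34, 3.00 and 3.14 in wild type on probe 1.

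The miRNAs of MIR390 and MIR173 trigger trans-acting siRNAs from TAS3 and from TAS1 and TAS2. MIR390a had 5.40, 5.13 and 4.11 in rdr2 and 6.38, 5.76 and 2.24 in wild type (log2 fold change 0.16, adjusted p = 0.822). MIR173 was not tested, since it was well above background on 2 wild-type arrays. It had 0.583, 0.649 and 1.30 in rdr2 and 7.07, 6.69 and 0.734 in wild type, the layout of the MIR169 probes.

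MIR393b, which acts on the auxin receptors TIR1 and AFB2, had 6.96, 6.65 and 5.63 in rdr2 and 6.93, 7.16 and 5.64 in wild type, with a log2 fold change of -0.03 and an interval of -0.42 to 0.36. MIR394b, which acts on the F-box gene LCR, gave 0.14 and -0.17, and MIR394a gave 0.10, with 95% intervals between -0.75 and 0.67. The intervals of these 4 probes lay within 2-fold under this scaling.

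The nutrition families, induced by a lack of sulfate, copper or phosphate, were mostly undetected. They held 5 families, 18 precursors and 22 probes. Of these, 4 probes of MIR395e and MIR408 were tested and 0 called, against 13.6% of all tested probes. MIR395e, whose miRNA acts on ATP sulfurylases and a sulfate transporter, had 0.728, 1.69 and 2.22 in rdr2 and 3.50, 2.51 and 2.43 in wild type. It was not well above background on any rdr2 array (adjusted p = 0.180). With rdr2 signals raised as for MIR169j, the MIR395e estimate was 1.12-fold lower. The interval of its log2 fold change, -2.08 to 0.10, held both signs. Its neighbour in gene order, MIR395f, and the other MIR395 precursors were detected on 0 of the 6 arrays. MIR408, a copper-regulated miRNA of plantacyanin and laccases, gave 0.23, -0.23 and 0.44. Of the families of MIR397, MIR398 and MIR399, with 11 precursors, none was tested. MIR399b probe 2 and MIR399c came closest, each detected on 2 wild-type arrays. MIR399c had 0.766, 0.766 and 0.468 in rdr2 and 4.08, 1.99 and 0.313 in wild type.

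Among the other families, MIR163 had the same sign on all 3 of its probes, as 9 of 15 precursors with several tested probes did. Its miRNA is found mostly in Brassicaceae and acts on methyltransferases of the SABATH family. Probe 2 had scaled signals of 683, 773 and 731 in rdr2 and 1116, 1082 and 939 in wild type. Probe 1 had 601, 617 and 682 in rdr2 and 813, 690 and 714 in wild type. Probe 3 had 445, 478 and 589 in rdr2 and 684, 682 and 673 in wild type. On each probe every rdr2 array lay below every wild-type array, a layout that 26.6% of all tested probes had. The log2 fold changes were -0.52, -0.22 and -0.44 for probes 2, 1 and 3, against a median of -0.26 over all tested probes. The smallest adjusted p was 0.0530 on probe 2 (SE 0.129). Probe 2 was called lower with normexp (log2 fold change -1.03, adjusted p = 0.00848) and stood at 0.09 with the percentile over all probes (adjusted p = 0.941).

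MIR158a and MIR161, whose miRNAs act on pentatricopeptide repeat genes among others, gave 0.00 for MIR158a and 0.03 and 0.32 for the MIR161 probes. MIR404 probe 2 had 31.8, 46.2 and 0.743 in rdr2 and 16.8, 18.2 and 33.5 in wild type. Replicate 3 of rdr2 was not well above background, and the log2 fold change of -1.08 had an interval of -5.09 to 2.94. MIR404 probe 1, at 24.6, 23.6 and 32.2 in rdr2 and 29.4, 27.8 and 35.5 in wild type, gave -0.21 and no such drop.

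The 8 families without a tested probe were MIR170, MIR173, MIR391, MIR397, MIR398, MIR399, MIR400 and MIR406, with 16 precursors and 21 probes. MIR406 was detected on 0 of the 6 arrays. MIR391 probe 3 had 0.541, 0.607 and 0.271 in rdr2 and 6.59, 4.08 and 0.423 in wild type, high on the shared wild-type slide alone. MIR400, MIR397a and MIR398b lie within protein-coding loci in the RefSeq table, as MIR408 does, and none of these host loci had a probe.

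Of 61 genes listed as targets, trans-acting siRNA loci, target mimics or parts of miRNA production, 8 were on the array: DCL1 to DCL4, AGO2, TAS4, NF-YA5 and TIR1. Of their 23 tested probes, 0 were called higher and 5 lower, where 5.11% and 8.49% of all tested probes were. The 5 were all probes of DCL2 and TAS4. DCL2, which makes secondary and antiviral siRNAs, fell on 3 of 3 probes. Its probe 2 had 88.0, 75.9 and 74.6 in rdr2 and 133, 145 and 158.4 in wild type (log2 fold change -0.87, SE 0.135, adjusted p = 0.0143). TAS4, whose siRNAs are triggered by a miRNA outside these families, fell on both tested probes. These probes entered the test through wild type, where they were high: all 3 wild-type arrays were well above background, against 2 rdr2 arrays for probe 1 and 1 for probe 2, so the sizes of their changes are uncertain. Probe 2 had 1.90, 2.75 and 3.06 in rdr2 and 8.36, 8.04 and 6.33 in wild type (log2 fold change -1.58, SE 0.228, adjusted p = 0.0112). Both calls ended when slide was a random block (adjusted p = 0.112 for DCL2 and 0.134 for TAS4) and with the percentile over all probes (0.837 and 0.406).

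The 4 direct targets of member miRNAs on the array were not called. DCL1, the target of miR162, had 584, 536 and 620 in rdr2 and 698, 757 and 744 in wild type on probe 2. These groups did not overlap, and the log2 fold changes were -0.08, -0.34 and -0.36 (smallest adjusted p = 0.114), with probe 2 at 0.27 under the percentile over all probes. AGO2, the target of miR403, gave -0.25, -0.13 and -0.11. TIR1, the target of miR393, had 5.79, 6.66 and 5.70 in rdr2 and 4.52, 4.59 and 4.53 in wild type on probe 1 (log2 fold change 0.41, adjusted p = 0.0794), and -0.08 on both other probes. NF-YA5, a target of miR169, had 159, 138 and 145 in rdr2 and 114, 112 and 120 in wild type on probe 1 (0.35, adjusted p = 0.105), and -0.03 and -0.09 on the others. Thus NF-YA5 had 1 of 3 probes without overlap, and its wild-type arrays did not split as those of the MIR169 probes did.

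**Figure D5:**
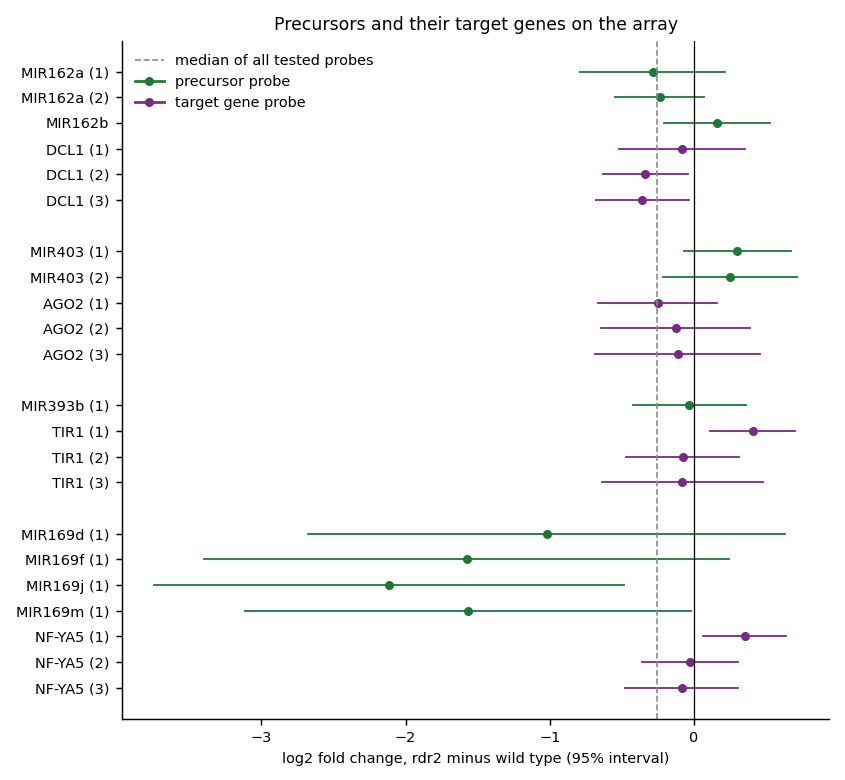
Points are log2 fold changes of rdr2 minus wild type with 95% intervals, for tested precursor probes (green) and, under them, the probes of a target gene of the same miRNA (purple); the dashed line is the median of all tested probes. No probe in this plot was called, and the intervals of the 4 MIR169 probes are several times wider than those of NF-YA5.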

How the data were processed

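Total RNA from 3 rdr2 and 3 wild-type inflorescence samples was labelled with Cy3 and hybridised to 1-colour Agilent arrays. Per the file headers, the authors used Feature Extraction, version 10.7.3.1 for rdr2 replicate 3 and 10.5.1.1 for the other 5 arrays. The deposited processed signals are intensity values from which the background was subtracted, array by array. The deposited value table holds log2 values, which recomputation showed to be processed signals with a floor of 1 after quantile normalization (at least 99.86% of values per array within 0.1).

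From the processed signals, log2 values were taken relative to the 75th percentile of the array, over the 2369 probes marked as well above background on each of the 6 arrays, and fitted with limma 3.58.1 (lmFit, eBayes, R 4.3.3), group being the sole term. Adjustment was by Benjamini-Hochberg over 3345 probes, with a threshold of 0.05. Intervals are at 95% and from the same fit. No spot was saturated. The scripts were tested on simulated data with independent arrays and no slide effect, so that test does not cover shared slides. The replicate numbers did not pair the samples (correlations of deviations -0.123, -0.120 and -0.152). The number of arrays limits the precision, and p-values measure the spread between these samples. The main fit took the arrays of a group as independent, although replicates 1 and 2 shared a slide. With slide as a random block, the fitted correlation within a slide was 0.773. The main p-values may thus be too small and the intervals too narrow.

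Members, gene lists and tests were chosen with earlier results of these data known. Named were RDR2, called members, the precursor with the smallest p in each family, called partner genes or the partner of smallest p in each list, and all tested precursors of the 2 families with most of them; any other member named was picked with its values in view. Probes of a precursor were tested singly and numbered in the order of their IDs. Figures were drawn with matplotlib 3.10.9. In all, 20 alternatives were run: other scalings, background correction, filters, slide and replicate blocks, averaging, threshold and left-out replicates. The normexp alternative changed the input signal, the background correction and the normalization together. Its offset of 50 makes fold changes of dim probes smaller, so these cannot be compared with the main ones.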

Additional observations from a re-analysis of the deposited data

How the results depend on the processing

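The member count called higher, 1 here, was 0 with the 75th percentile over all probes, quantile normalization, the deposited table, no filter, a filter on at least 1 array, slide as a random block, arrays of a slide averaged, the replicate block and a threshold of 0.01. It was 2 with median scaling, 3 with the filter on all 6 arrays and 4 with normexp, and 0 to 2 when 1 replicate was left out. The member count called lower, 0 here, was 1 with the filter on all 6 arrays and without moderation, 4 with normexp, and 0 to 7 with a replicate left out, 7 being without wild-type replicate 3 and 3 without rdr2 replicate 3. With normexp the calls were MIR163 on 3 probes and MIR167b lower, and MIR159a on 2 probes, MIR171b and MIR396a higher, 12.9% of member probes against 14.0% of all tested probes. Without wild-type replicate 3, MIR163, MIR159c, MIR167a, MIR169f, MIR169j, MIR169m and MIR319c were lower, where 23.0% of all tested probes were. The wild-type arrays left there shared a slide. The partner count called higher, 0 here, was 1 with the filter on all 6 arrays and 2 without moderation. The partner count called lower, 5 here, was 0 with the 75th percentile over all probes, no filter, a filter on at least 1 array, slide as a random block, arrays of a slide averaged, the replicate block and a threshold of 0.01. It was 7 with normexp and 4 with median scaling, quantile normalization and the deposited table. It was 3 with the filter on all 6 arrays and without moderation, and 2 with probes of a name averaged. With a replicate left out it was 0 to 5. It was 0 without wild-type replicate 1 or 2, 3 without rdr2 replicate 1 and 2 without rdr2 replicate 2. The cause of these differences was not tested. Over all tested probes the calls were 58 higher and 71 lower with the replicate block, against 171 and 284 here, and slide as a random block gave 57 and 55. The fall of RDR2 was called under all 20 alternatives (log2 fold change -2.75 to -2.08, largest adjusted p = 0.0305). Slide as a fixed block was not run, since no slide held both groups. Dim probes limit what could be tested: 84 member probes were not tested.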
